A study of Homo sapiens with 4 samples.

Results

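The genes described here are 41 type I interferon-stimulated genes, whose transcripts accumulate in most human cells after exposure to interferon alpha or beta. They were listed by symbol, and the measured values of the comparison were not used in the rule. The list was nevertheless chosen with earlier results of these data known. All 41 were found among the 20481 gene symbols of the array, on 52 probes matched by symbol or synonym. The array uses older names for some of them, so that *G1P2* is *ISG15*, *G1P3* is *IFI6* and *ISGF3G* is *IRF9*.

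Total RNA was taken from LN229, an established human glioblastoma cell line, after transfection with siRNA against *SOX2* (*SOX2* knockdown) or with a control siRNA without a target (mock knockdown). *SOX2* encodes an HMG-box transcription factor of stem cells. Small interfering RNAs (siRNAs) are short RNA duplexes that guide the cutting of a transcript with the same sequence. Both groups therefore carried a transfected siRNA, were grown in DMEM and came from the same line, and cells without siRNA were not analysed here. There were 2 arrays per group, and the study's methods describe separate transfections for the replicates. The methods name more than 1 siRNA against *SOX2* and do not state which was used for the arrays. Each sample was hybridised to a 1-colour chemiluminescent oligonucleotide array (Applied Biosystems Human Genome Survey), and precision is limited by there being 2 arrays in each group.

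Type I interferons are secreted by cells that detect foreign nucleic acid and bind the receptor subunits IFNAR1 and IFNAR2. The receptor-bound kinases JAK1 and TYK2 then activate transcription factors, and a complex that contains STAT2 and IRF9 binds the interferon-stimulated response element, a DNA motif in the promoters of the target genes. The induced proteins block steps of viral replication, and many cells keep a low basal level of them through the same factors without added interferon.

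Each array held 33096 gene probes, and S/N, the ratio of signal to noise, exceeded 3 for between 63.5% and 68.9% of them. Probes of 1 gene ID were averaged, signals were divided by the 75th percentile of their array, and of 27739 features the 18378 whose S/N exceeded 3 on each array of 1 group or of both were tested. All levels below are on this scaled signal, and changes are log2 differences of *SOX2* knockdown minus mock. *SOX2*, the targeted gene (hCG2021649), was at 0.454 and 0.682 in mock and at 0.204 and 0.145 in knockdown, a log2 change of -1.69 (SE 0.28, limma with Benjamini-Hochberg adjustment over all features, adjusted p = 0.114). The treatment text of the labels names a colon line, SW620, whereas the other labels name LN229. Of 12 glial and mesenchymal markers 11 had a probe whose S/N exceeded 3 on every array, as did 4 of 14 colon epithelial markers (*VIL1*, *KRT8*, *KRT18* and *TFF3*). Of the other colon markers *CDX2* and *LGALS4* exceeded 3 on the mock arrays only and *CDX1* on 1 array of each group. *EPCAM* exceeded 3 on the second mock array only, and *CEACAM5* and *GPA33* on the second knockdown array only. *CDH1*, *KRT20*, *CDH17* and *FABP1* were under 3 on every array. The summed signal of the glial probes was 195 and 243 in mock and 186 and 173 in knockdown, and that of the colon probes was 6.87 and 6.87 in mock and 8.04 and 8.0 in knockdown. Most of the glial sum came from *SPARC*, *VIM* and *S100B*, and single glial probes had knockdown-to-mock ratios from 0.492 (*FABP7*) to 1.48 (*EGFR*). Most of the colon sum came from *KRT18*, at 5.36 and 5.47 in mock and at 6.70 and 6.19 in knockdown. The sums therefore do not describe the markers of each list in common. The part of these markers in the results below was not tested. In total RNA of whole cultures, fewer cells that express a gene and less RNA per cell cannot be told apart.

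Most of the interferon-stimulated genes had lower signals after *SOX2* knockdown, by small amounts for most genes and by more than 2-fold for *IFIT1*, *IFIT2*, *IFIT3* and *GBP2*. Of the 41 genes 35 were tested, and for all 35 the S/N exceeded 3 on every array. The log2 change was below 0 for 31 of the 35, beside 49.7% of all features tested. For 23 of the 35 (65.7%) the higher knockdown array was still below the lower mock array, beside 25.7% of all features. The reverse held for 2, *IRF1* and *ISG20*, beside 21.6%. Such groups are called apart below, and the groups of the other 10 overlapped. The median log2 change of the 35 was -0.33 (range -1.40 to 1.16), beside 0.00178 over all features tested. The plot of cumulative changes shows this as a curve that lies to the left of the curve of all features over most of its length, with 1 gene far to the right.

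**Figure D1:**
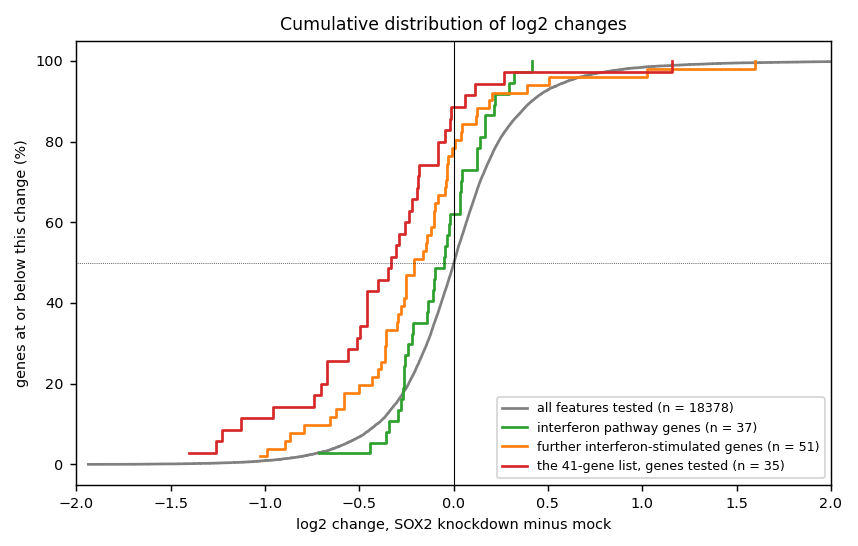
Cumulative share of genes (vertical axis, %) at or below each log2 change of *SOX2* knockdown minus mock (horizontal axis) for the 35 tested genes of the list, 51 further interferon-stimulated genes, 37 interferon pathway genes and all 18378 features tested, some of which lie beyond the axis on the right. The medians are -0.33, -0.21, -0.05 and 0.00178 in that order.

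Past 2-fold by the replicate means were 4 of the 35 in the lower direction, beside 0.909% of all features, and 1 in the higher direction, *IRF1*, beside 1.47%. No gene of the list passed an adjusted p of 0.05 in limma, and neither did any of the 18378 features (0% called). The smallest adjusted p was 0.0824 in the list and 0.0700 over all features. At an adjusted p under 0.1, 5 of the 35 were called (*IFIT1*, *IFIT2*, *IFIT3*, *GBP2* and *IRF1*), beside 0.903% of all features. At an unadjusted p under 0.05 in limma, 16 were lower and 1 was higher, beside 9.07% and 8.12% of all features. The number at an adjusted p under 0.05 changed with the scaling of the arrays. It became 6 of the 35 when each array was divided by its median, where 666 features in all passed. With that division *SOX2* and each tested gene of the list had the same SE in limma, 0.28, so that their calls followed the size of the change alone.

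For each array, the deviations of the 35 genes from their means over the 4 arrays were summarised by their median, on the log2 scale. This median was 0.15 and 0.22 for mock and -0.21 and -0.18 for knockdown. Some single genes, such as *USP18*, differed more between the replicates of a group.

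**Figure D2:**
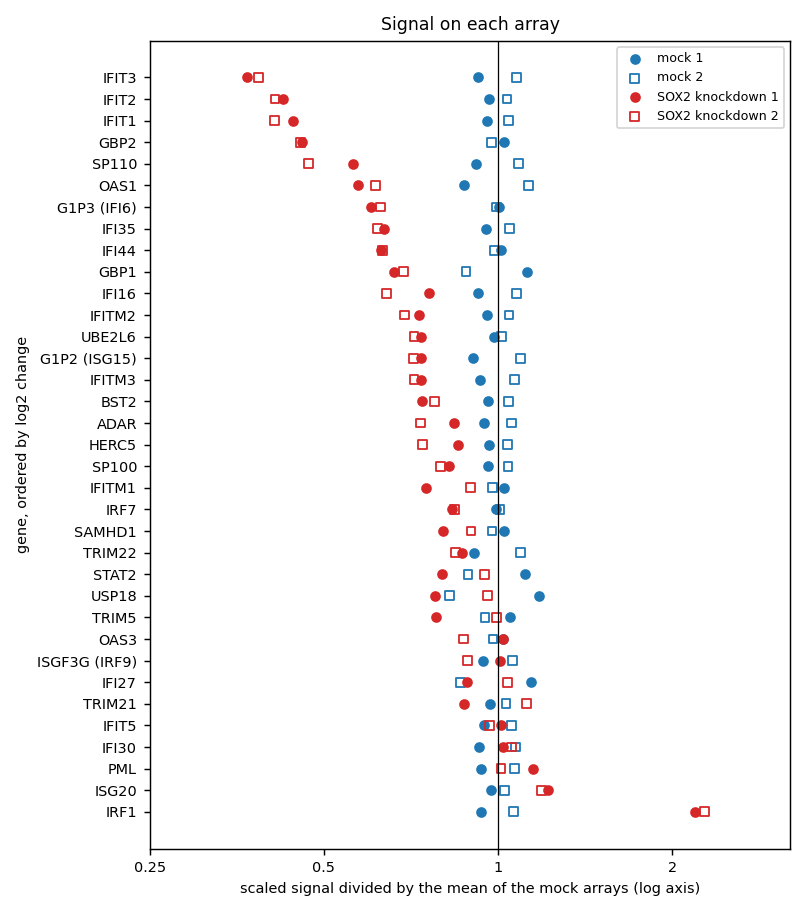
Scaled signal of each of the 35 tested genes on each array divided by the mean of the 2 mock arrays (horizontal log axis), with genes ordered by log2 change on the vertical axis, circles for replicate 1 and squares for replicate 2, blue for mock and red for *SOX2* knockdown. The knockdown points of *IFIT3*, *IFIT2*, *IFIT1* and *GBP2* lie left of 0.5, those of *IRF1* lie right of 2, and in the lower rows the colours mix.

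The *IFIT* genes encode tetratricopeptide proteins that bind foreign RNA and block its translation, and 3 of the 4 stood lowest in the list. *IFIT3* (hCG24570.3), which stabilises IFIT1 on RNA, was at 0.544 and 0.634 in mock and at 0.217 and 0.227 in knockdown. Its knockdown mean was 37.7% of mock (log2 change -1.40, SE 0.14, limma adjusted p = 0.0833). *IFIT2* (hCG1643352.4), a partner of the same complex, was at 0.746 and 0.802 in mock and at 0.329 and 0.319 in knockdown. The replicates of each group lay close together and the groups far apart, with 41.8% of mock left (log2 change -1.26, SE 0.12, limma adjusted p = 0.0824). *IFIT1* (hCG24571.4), which recognises RNA that lacks the cap methylation of the host, was at 0.319 and 0.348 in mock and at 0.148 and 0.137 in knockdown, or 42.7% of mock (log2 change -1.23, SE 0.13, limma adjusted p = 0.0838). With a normexp background correction the log2 change of *IFIT1* was -0.88, and it no longer passed 2-fold. The fourth gene, *IFIT5* (hCG24572.3), which binds RNA with a triphosphate end, did not share the pattern. It was at 0.507 and 0.564 in mock and at 0.543 and 0.518 in knockdown, so that the groups overlapped (log2 change -0.01, SE 0.13, limma adjusted p = 0.986).

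The promoter windows of these genes are shown because they carry the response element through which the family is induced. They are RefSeq sequences (GRCh38.p14) from 250 bases before to 50 bases after the annotated start, written 5′ to 3′ on the strand of the gene. Capitals mark each match to the core letters of the interferon-stimulated response element, GAAA, any 2 bases and GAAA again, on either strand. *IFIT1* lies at chr10:89392373-89392672 on the plus strand, *IFIT3* at chr10:89327747-89328046 on the plus strand (the first of 2 windows), *IFIT5* at chr10:89414318-89414617 on the plus strand and *ISG15* at chr1:1013247-1013546 on the plus strand.
IFIT1: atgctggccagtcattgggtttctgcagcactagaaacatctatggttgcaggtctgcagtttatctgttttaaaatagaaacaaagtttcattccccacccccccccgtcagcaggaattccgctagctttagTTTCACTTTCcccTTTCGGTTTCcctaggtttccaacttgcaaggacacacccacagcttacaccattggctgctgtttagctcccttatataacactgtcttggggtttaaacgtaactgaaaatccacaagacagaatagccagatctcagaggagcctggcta
IFIT3: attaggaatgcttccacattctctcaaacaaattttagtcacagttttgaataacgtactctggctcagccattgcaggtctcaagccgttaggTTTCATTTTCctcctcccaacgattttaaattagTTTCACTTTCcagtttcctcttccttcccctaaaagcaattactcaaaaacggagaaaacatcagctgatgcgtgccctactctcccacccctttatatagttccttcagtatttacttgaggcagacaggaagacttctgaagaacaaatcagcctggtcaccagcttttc
IFIT5: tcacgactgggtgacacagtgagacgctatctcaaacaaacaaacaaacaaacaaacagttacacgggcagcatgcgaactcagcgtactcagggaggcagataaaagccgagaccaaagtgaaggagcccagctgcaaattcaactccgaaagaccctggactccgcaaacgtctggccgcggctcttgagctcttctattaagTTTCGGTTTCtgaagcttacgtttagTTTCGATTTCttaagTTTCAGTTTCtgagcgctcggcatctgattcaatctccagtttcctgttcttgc
ISG15: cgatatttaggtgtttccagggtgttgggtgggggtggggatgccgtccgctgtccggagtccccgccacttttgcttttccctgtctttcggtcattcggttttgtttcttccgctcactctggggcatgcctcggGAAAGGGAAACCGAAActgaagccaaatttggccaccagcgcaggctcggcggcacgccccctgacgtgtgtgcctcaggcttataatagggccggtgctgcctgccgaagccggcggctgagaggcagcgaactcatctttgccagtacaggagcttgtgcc
The matches begin 116 and 103 bases before the start in *IFIT1*, 156 and 122 bases before it in *IFIT3* and 113 and 107 bases before it in *ISG15*, where they overlap. In *IFIT5*, whose signal overlapped between the groups, there were 3 matches, beginning 45, 19 and 4 bases before the start. *IFIT2* and *GBP2* were not among the windows used here.

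The guanylate-binding proteins are large GTPases that attack the vacuoles and membranes of intracellular pathogens. *GBP2* (hCG1811329.1) was at 1.05 and 0.996 in mock and at 0.470 and 0.466 in knockdown. That is 45.7% of mock, with a gap between the groups many times the distance between replicates (log2 change -1.13, SE 0.12, limma adjusted p = 0.0845). One of its probes was near background on all 4 arrays, and the other gave a knockdown-to-mock ratio of 0.455. *GBP1*, the best known member of the family, was at 0.565 and 0.444 in mock and at 0.333 and 0.346 in knockdown (log2 change -0.56, SE 0.17, limma adjusted p = 0.220). Its mock arrays differed from each other by about as much as the lower of them differed from the knockdown arrays.

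The MX proteins are dynamin-like GTPases that trap viral nucleocapsids, and neither gene was tested. *MX1* had S/N of 2.39 and 6.12 in mock and of 2.64 and 1.61 in knockdown. *MX2* had S/N under 3 on every array. The oligoadenylate synthetases make the second messenger that activates RNase L, and *OAS1*, *OAS2*, *OAS3* and the related *OASL* are on the array. *OAS1* was at 0.172 and 0.222 in mock and at 0.113 and 0.121 in knockdown, or 59.4% of mock (log2 change -0.74, SE 0.18, limma adjusted p = 0.165). The groups did not overlap, and the 2 probes of *OAS1* gave ratios of 0.526 and 0.679. With normexp its log2 change was -0.28. *OAS3* had overlapping groups, with a mean of 94.7% of mock (log2 change -0.08, SE 0.14). *OAS2* had S/N under 3 on all 4 arrays, and *OASL* had S/N of 4.11 on the first mock array and under 3 on the others.

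The membrane-bound restriction factors were lower in all 4 cases and by a similar amount, with log2 changes between -0.50 and -0.29. The IFITM proteins sit in endosomal and plasma membranes and hinder fusion of incoming virus. *IFITM3* was at 15.5 and 17.7 in mock and at 12.2 and 11.9 in knockdown (log2 change -0.46, SE 0.14, limma adjusted p = 0.220). *IFITM2* was at 7.44 and 8.13 in mock and at 5.67 and 5.36 in knockdown (log2 change -0.50, SE 0.13, limma adjusted p = 0.186). *IFITM1* was at 0.616 and 0.588 in mock and at 0.452 and 0.539 in knockdown (log2 change -0.29, SE 0.15, limma adjusted p = 0.431). The groups did not overlap for any of the 3. *BST2*, or tetherin, holds budding virions at the cell surface and was at 0.353 and 0.383 in mock and at 0.272 and 0.286 in knockdown (log2 change -0.40, SE 0.13, limma adjusted p = 0.238).

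ISG15 is a ubiquitin-like protein that is attached to other proteins by a dedicated enzyme chain, and 3 parts of this chain had groups apart in the lower direction. *G1P2* (*ISG15*) was at 0.226 and 0.273 in mock and at 0.184 and 0.178 in knockdown (log2 change -0.46, SE 0.15, limma adjusted p = 0.248). *UBE2L6*, the conjugating enzyme, was at 1.31 and 1.35 in mock and at 0.980 and 0.951 in knockdown (log2 change -0.46, SE 0.12, limma adjusted p = 0.187). These levels average a probe near background on every array and a probe with a knockdown-to-mock ratio of 0.723. *HERC5*, the ligase, was at 0.262 and 0.281 in mock and at 0.232 and 0.201 in knockdown (log2 change -0.33, SE 0.14, limma adjusted p = 0.346). The knockdown arrays of each gene were below its mock arrays without overlap, and none passed the test. *HERC6*, a relative of the ligase, had S/N over 3 on 2 of the 4 arrays, 1 in each group, and was not tested.

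*USP18*, which removes ISG15 and dampens the receptor, could be read less plainly. Its feature holds a probe that the array also assigns to *USP41* and a probe assigned to *USP18* alone, and another probe has a gene ID of its own. The averaged feature was at 0.834 and 0.584 in mock and at 0.552 and 0.680 in knockdown, with overlapping groups (log2 change -0.19, SE 0.23, limma adjusted p = 0.793). Within the feature, the probe assigned to *USP18* alone was at 0.573 and 0.492 in mock and at 0.399 and 0.379 in knockdown, without overlap and at a ratio of 0.731. The shared probe gave a ratio of 0.952. The probe with its own gene ID, also assigned to *USP18* alone, was dim, at 0.0257 and 0.0919 in mock and at 0.0593 and 0.0866 in knockdown, and overlapped between the groups at a ratio of 1.24. Transcripts of *USP18* and *USP41* cannot be told apart with the shared probe.

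Among the transcription factors of the list, *IRF1* stood alone in direction and size. IRF1 activates interferon and antiviral genes and responds to interferon gamma and to NF-kappaB. *IRF1* (hCG24115.3) was at 0.417 and 0.475 in mock and at 0.978 and 1.01 in knockdown. Both knockdown arrays were more than 2-fold above either mock array, at 223% of the mock mean (log2 change 1.16, SE 0.14, limma adjusted p = 0.0913). With normexp the log2 change was 0.97, just under 2-fold. *IRF7*, which amplifies interferon alpha production, was at 0.326 and 0.331 in mock and at 0.274 and 0.276 in knockdown (log2 change -0.26, SE 0.12, limma adjusted p = 0.383). The groups of *IRF7* were apart by more than the replicates, although the change was small.

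For the parts of the interferon-activated complex in the list the groups overlapped. *STAT2*, its transactivating part, had a mean of 87.3% of mock (log2 change -0.19, SE 0.18). *ISGF3G* (*IRF9*), its DNA-binding part, was at 94.6% of mock (log2 change -0.08, SE 0.15). The promoter of *IRF1* is shown because it is the gene of the list that was higher by more than 2-fold. The window lies at chr5:132490724-132491023 on the minus strand (RefSeq, GRCh38.p14), and capitals mark the match to TTCNNNGAA, the core letters of the gamma-activated site.
IRF1: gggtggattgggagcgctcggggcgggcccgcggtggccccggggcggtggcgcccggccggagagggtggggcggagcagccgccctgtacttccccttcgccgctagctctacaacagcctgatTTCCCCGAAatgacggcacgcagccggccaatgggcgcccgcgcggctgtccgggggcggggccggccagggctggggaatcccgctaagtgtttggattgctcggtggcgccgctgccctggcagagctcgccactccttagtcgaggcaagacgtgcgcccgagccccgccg
The match begins 124 bases before the start, and the letters of the response element were not found in this window.

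**Figure D3:**
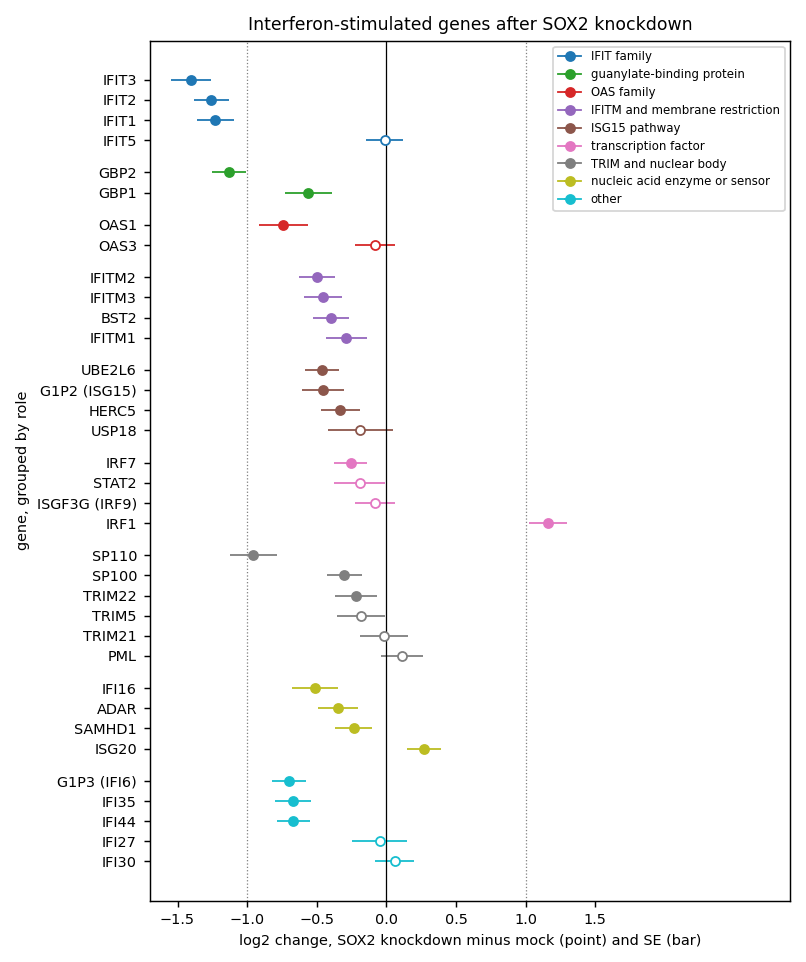
Log2 change of *SOX2* knockdown minus mock (points, horizontal axis) with its SE (bars) for the 35 tested genes, grouped by role on the vertical axis, with filled points where both knockdown arrays lay on 1 side of both mock arrays and open points where the groups overlapped. Dotted lines mark 2-fold, which *IFIT1*, *IFIT2*, *IFIT3* and *GBP2* passed to the left and *IRF1* passed to the right.

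TRIM proteins and the components of nuclear bodies were mostly lower, with *SP110* far below the rest. *SP110*, a nuclear body protein with a bromodomain, was at 1.58 and 1.88 in mock and at 0.971 and 0.814 in knockdown, or 51.5% of mock (log2 change -0.96, SE 0.17, limma adjusted p = 0.121). The groups did not overlap, and without the first mock array or the first knockdown array it passed 2-fold (log2 change -1.08 in both). *SP100*, a founding component of the same bodies, was at 1.06 and 1.15 in mock and at 0.908 and 0.878 in knockdown (log2 change -0.30, SE 0.13, limma adjusted p = 0.333), and at -0.07 with normexp. Its feature averages 2 probes, and the probe that carries the symbol *SP100* gave a ratio of 0.807. *TRIM22*, a ubiquitin ligase that restricts viral transcription, was at 0.352 and 0.423 in mock and at 0.336 and 0.327 in knockdown (log2 change -0.22, SE 0.15, limma adjusted p = 0.559). The knockdown arrays of *TRIM22* were only just below the lower mock array.

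*TRIM5*, which recognises retroviral capsids, and *TRIM21*, a cytosolic antibody receptor, had overlapping groups at 88.7% and 99.6% of mock. *PML*, the scaffold of the nuclear bodies, had overlapping groups at 108% of mock (log2 change 0.11, SE 0.15). Its feature includes a probe that the array also assigns to *LOC161527*, with a ratio of 1.28. The probes assigned to *PML* alone in the same feature gave 0.878 and 1.0. A further probe for *PML* alone, with a gene ID of its own and S/N over 3 on all 4 arrays, gave 0.877.

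Enzymes and sensors that act on nucleic acids were lower for 3 genes and higher for 1. *IFI16*, a DNA sensor, was at 6.27 and 7.30 in mock and at 5.16 and 4.36 in knockdown (log2 change -0.51, SE 0.16, limma adjusted p = 0.235). *ADAR*, which edits adenosine to inosine in double-stranded RNA, was at 2.29 and 2.55 in mock and at 2.03 and 1.77 in knockdown (log2 change -0.35, SE 0.14, limma adjusted p = 0.335). *SAMHD1*, which depletes deoxynucleotides, was at 0.429 and 0.409 in mock and at 0.336 and 0.376 in knockdown (log2 change -0.24, SE 0.13, limma adjusted p = 0.467). In these genes the groups were apart, but the gap was only about as large as the distance between replicates. *ISG20*, an exonuclease that degrades RNA, ran the other way, at 0.340 and 0.359 in mock and at 0.427 and 0.415 in knockdown, or 120% of mock (log2 change 0.27, SE 0.12, limma adjusted p = 0.376).

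Of the genes named only for their induction by interferon, *G1P3* (*IFI6*), *IFI35* and *IFI44* were lower by nearly the same amount. *G1P3*, a membrane protein of mitochondria and endoplasmic reticulum, was at 1.42 and 1.40 in mock and at 0.851 and 0.884 in knockdown, or 61.5% of mock (log2 change -0.70, SE 0.12, limma adjusted p = 0.117). *IFI35*, a leucine zipper protein that pairs with NMI, was at 0.629 and 0.690 in mock and at 0.420 and 0.408 in knockdown (log2 change -0.67, SE 0.13, limma adjusted p = 0.130). *IFI44* was at 0.302 and 0.294 in mock and at 0.187 and 0.188 in knockdown (log2 change -0.67, SE 0.12, limma adjusted p = 0.121). The distance between the groups of each was several times that between replicates. *IFI27*, a small mitochondrial protein, had overlapping groups at 96.1% of mock, and *IFI30*, a lysosomal thiol reductase, had overlapping groups at 104%. The chemokine *CXCL10* had S/N below 0 on all 4 arrays and was not tested.

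The ligands and receptors upstream of these genes were next compared, from a list of 59 interferon pathway genes of which 57 were found and 37 tested. Of 20 interferon genes on the array only 5 were tested, and none had groups apart. *IFNB1*, the interferon that most cell types make first, had S/N from -0.62 to -0.09 and so was not above background on any array. The 5 receptor subunits tested all had a log2 change below 0, beside 49.7% of all features. For 4 of them the groups were apart in the lower direction, beside 25.7% of all features. None of the 5 passed an unadjusted p of 0.05 in limma. *IFNAR2* was at 1.58 and 1.79 in mock and at 1.31 and 1.35 in knockdown (log2 change -0.34, SE 0.13, limma adjusted p = 0.311). *IFNAR1*, its partner, was at 0.604 and 0.567 in mock and at 0.512 and 0.496 in knockdown (log2 change -0.22, SE 0.12, limma adjusted p = 0.476). For both subunits of the type I receptor the groups were apart. *IFNGR1* had a log2 change of -0.27 and *IL10RB* of -0.26, while *IFNGR2* was at -0.03 with overlapping groups. The remaining subunit, *IFNLR1*, was not tested.

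Of the kinases bound to the type I receptor, *JAK1* (log2 change -0.10, SE 0.18) and *TYK2* (-0.24, SE 0.18) had overlapping groups. *JAK2*, which serves the interferon gamma receptor, had groups apart in the lower direction (-0.22, SE 0.13, limma adjusted p = 0.478). Of the 37 tested pathway genes 10 (27.0%) were apart in the lower direction, close to the 25.7% of all features, and 5 (13.5%) in the higher direction, beside 21.6%. Their median log2 change was -0.05. By size of change, with groups apart and S/N above 3 on each array, the lower genes were led by *IRF2* (-0.44). IRF2 is a repressor that competes with IRF1. The lower genes also included *IFNAR2*, *PIAS1* (-0.29), a SUMO ligase, and *IFNGR1*. *TLR9* was lower still with groups apart (log2 change -0.71, SE 0.21, limma adjusted p = 0.220), but its S/N was 0.06 and 1.23 on the mock arrays. It was named after its value was seen. The higher genes were led by *TRAF3* (0.41), *TICAM1* (0.32), *IRF2BP2* (0.21), *TBK1* (0.17) and *CREBBP* (0.12). TRAF3, TICAM1 and TBK1 act in the induction of interferon by nucleic acid sensors and Toll-like receptors. No pathway gene passed an adjusted p of 0.1 in limma.

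A second list of 68 interferon-stimulated genes, with no gene in common with the 41, was set beside them. Of these 62 were found and 51 tested, and 40 of the 51 (78.4%) had a log2 change below 0, beside 49.7% of all features. The groups were apart in the lower direction for 26 (51.0%), beside 25.7% of all features, and in the higher direction for 5 (9.80%), beside 21.6%. The median log2 change was -0.21. At an unadjusted p under 0.05 in limma, 13 of the 51 were lower and 2 were higher, beside 9.07% and 8.12% of all features. The shares were thus closer to the background than in the list of 41, and the difference between the lists was not tested.

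Of the genes with groups apart and S/N above 3 on each array, the 5 with the lowest log2 change included regulators and sensors of cytosolic RNA. *DHX58*, which regulates those sensors, was at 0.101 and 0.0962 in mock and at 0.0420 and 0.0588 in knockdown (log2 change -0.99, SE 0.20, limma adjusted p = 0.140). *IFIH1*, the sensor MDA5, was at 0.937 and 0.924 in mock and at 0.624 and 0.559 in knockdown (log2 change -0.66, SE 0.13, limma adjusted p = 0.135). *GBP3*, a relative of *GBP2*, was at 0.477 and 0.413 in mock and at 0.256 and 0.257 in knockdown (log2 change -0.79, SE 0.14, limma adjusted p = 0.119). In each of these genes the groups were well apart. *LGALS3BP*, a secreted glycoprotein, was at 5.85 and 6.55 in mock and at 3.19 and 3.47 in knockdown (log2 change -0.89, SE 0.14, limma adjusted p = 0.107). *SAMD9*, an antiviral factor that acts on translation, was at 0.401 and 0.321 in mock and at 0.205 and 0.188 in knockdown (log2 change -0.87, SE 0.17, limma adjusted p = 0.130). *RTP4* was lower than these 5 (log2 change -1.02, SE 0.26, limma adjusted p = 0.180) with groups apart, but its S/N was 2.72 on the first knockdown array.

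In the other direction the largest value was that of *TRIM25*, the ubiquitin ligase that acts with the sensor RIG-I. *TRIM25* was at 0.0674 and 0.0820 in mock and at 0.249 and 0.204 in knockdown, or 303% of mock (log2 change 1.60, SE 0.18, limma adjusted p = 0.0879). Its probe was above S/N of 3 on each array, and the knockdown arrays were far above the mock arrays. *WARS1*, the cytosolic tryptophanyl-tRNA synthetase, was at 6.56 and 7.57 in mock and at 10.7 and 9.41 in knockdown (log2 change 0.51, SE 0.15, limma adjusted p = 0.218). *TYMP*, thymidine phosphorylase, had a log2 change of 0.39, on a feature that also holds a probe for *SCO2*. *NT5C3A* (0.20) and *ETV7* (0.19) were the remaining genes of the 5 largest in this direction whose groups were apart with S/N above 3 on each array. *RSAD2*, or viperin, had a larger value than *WARS1* (log2 change 1.02, SE 0.78, limma adjusted p = 0.611), but its groups overlapped and its S/N was under 3 on the first mock array. *RTP4* and *RSAD2* were named after their values were seen. Thus *IRF1* in the list of 41 and *TRIM25* in the list of 68 ran against the majority of their lists.

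The promoter windows were then searched for 3 motifs on both strands, as a description of the sequences. Of the 41 genes 31 had at least 1 window, 42 windows in all. The letters of the response element (GAAA, any 2 bases, GAAA) were found for 18 of the 31 genes (58.1%) and in 22 of the 42 windows (52.4%), beside 3.57% of all 35116 windows of the same length. The letters TTCNNNGAA were found in 10 of the 42 windows (23.8%), beside 7.66% of all windows. In 5 windows a match to TTCNNNGAA overlapped a match to the response element, and in 4 windows 2 matches to the response element overlapped each other. CATTGT, core letters bound by SOX proteins, was found in 2 of the 42 windows (4.76%), beside 10.8% of all windows. A motif match does not show that a factor binds there.

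Among tested genes with a window, those with and without the letters of the response element overlapped in their change. *IFIT2* and *GBP2* had no window and are in neither group. Elements with other letters or outside the windows were not searched for, and the difference was not tested. Of the genes tested 16 had the motif in a window, and 15 of them were lower, 10 with groups apart, at a median log2 change of -0.37. A further 12 tested genes had windows without it, and 10 of them were lower, 8 with groups apart, at a median of -0.33. The genes with the motif ran from *IFIT3* at -1.40 to *ISG20* at 0.27, and *IFIT5*, *IFI27*, *TRIM21* and *OAS3* were among them with overlapping groups. Those without it ran from *SP110* at -0.96 to *IRF1* at 1.16.

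**Figure D4:**
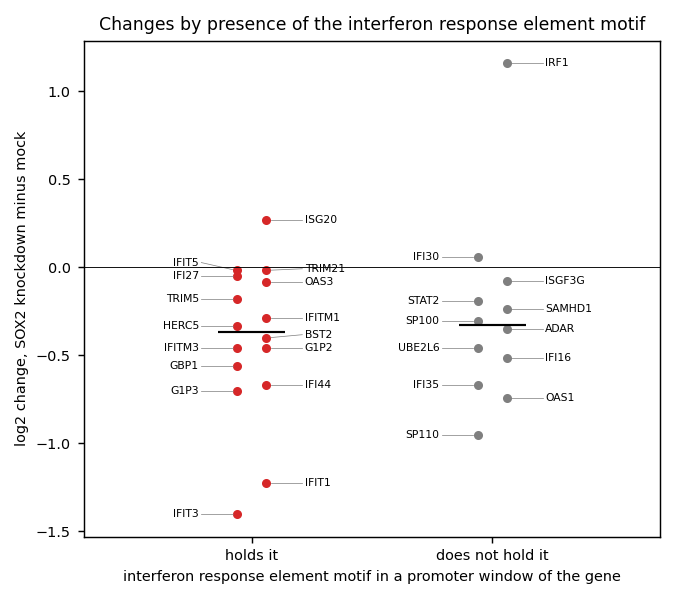
Log2 change of *SOX2* knockdown minus mock (vertical axis) for the 28 tested genes with a promoter window, split by whether a window holds the interferon-stimulated response element motif (horizontal axis, red for the 16 that hold it, grey for the 12 that do not), with a bar at each median. The medians, -0.37 and -0.33, lie close together, and both groups span values near 0 and below -0.9.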

How the data were processed

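Total RNA of 4 LN229 cultures was labelled and hybridised, 1 culture per array, and the groups and replicate numbers were read from the sample labels. The deposited scanner files give an intensity for each probe, which the authors' array software had normalized within the array, and a signal-to-noise score (S/N) beside it. The authors also deposited a table of each probe's linear ratio to its median over the arrays, used here as an alternative. What the flags mean, and which software version set them, is not given in the sources used here.

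Control features and 210 probes with a flag of 5000 or more were left out, probes of 1 Celera gene ID were averaged (the study's methods averaged raw intensities), features were scaled to the 75th percentile of their array, floored at 0.01 and put on a log2 scale. Those whose S/N exceeded 3 on each array of 1 group or of both were fitted with limma 3.58.1 in R 4.3.3 (lmFit and eBayes without a block, a two-sided test), and p-values were adjusted over all of them by Benjamini-Hochberg, after the fit was tested on simulated data. Arrays carry no counts, so that precision rests on 2 arrays per group. Gene means were also compared with the 2-fold cutoff of the study, which uses no test. Markers of cell type were read on single probes, since averaging by gene ID joined some probes of different genes.

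The genes, the further lists and the tests were chosen with earlier results of these data known. Values on every array are given for genes of the list whose groups were apart with S/N over 3 on all 4 arrays or that passed 2-fold, and of the other lists for the type I receptor and some of the 5 genes per direction with the largest change among those whose groups were apart with S/N over 3 on every array. Alternatives changed the scaling, the signal column, the background correction, the floor, the filter, the averaging, the flags, the variance model, the pairing, the fold cutoff and the arrays left out. One gene of the pathway list is not reported here by name.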

Additional observations from a re-analysis of the deposited data

How the results depend on the processing

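The direction of the list did not depend on the alternatives run, and its median log2 change stayed below 0. Between 28 and 36 genes were lower, of between 35 and 41 tested. The median over all features tested ran from -0.062 without the second mock array to 0.057 without the first knockdown array. The share of all features below 0 was not computed under the alternatives. The genes at an adjusted p under 0.05 in limma did depend on them. The number was 6 (*IFIT1*, *IFIT2*, *IFIT3*, *GBP2*, *SP110* and *IRF1*) with division by the array median, with no further scaling and with the deposited table of ratios, and 5 with a variance trend (those without *SP110*), where 666, 648, 639 and 240 features in all passed. With S/N over 3 required on all 4 arrays 3 features passed and none of the list. Under each of the first 3 of these settings *SOX2* and all tested genes of the list shared 1 SE in limma. It was 0.283 (median), 0.285 (no further scaling) and 0.281 (table of ratios), so that their calls followed the size of the change alone. *SOX2* passed under the same 3 scalings, with log2 changes of -1.72 (median), -1.72 (no further scaling) and -1.72 (table of ratios), and the pathway genes with groups apart numbered 8, 8 and 7 in place of 15. With no further scaling 1 gene of the list was apart in the higher direction. With normexp no gene of the list was 2-fold higher (0), and *ISGF3G* (0.0465), *TRIM5* (0.0134), *IFI27* (0.0453) and *IFI30* (-0.0748) turned sign. A cutoff of 1.5-fold gave 9 lower genes, with *IRF1* alone higher, and 3-fold gave 0 lower and 0 higher. The shares over all features at these cutoffs were not computed, so these counts have no background beside them.

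Leaving out each array in turn gave a median log2 change between -0.40 and -0.34, between 3 and 5 genes of the list apart in the higher direction, between 25 and 30 pathway genes apart and *SOX2* between -1.98 and -1.40, and 7 genes whose groups overlapped in the full data turned sign, *IFIT5* (-0.0901 to 0.0639), *OAS3* (-0.197 to 0.0302), *USP18* (-0.445 to 0.0686), *ISGF3G* (-0.172 to 0.0106), *TRIM21* (-0.196 to 0.163), *IFI27* (-0.252 to 0.156) and *IFI30* (-0.0463 to 0.164). With 1 array left in a group, apart means only that this array lies outside the other group. That condition is easier to meet than the one in the full data, so a higher count alone is not a result about these genes. The spread of the single array is assumed to be that of the other group. The shares of all features apart under these settings were not computed, so the counts of genes apart have no background beside them. *OASL*, which was not tested in the full data, was past 2-fold without the second mock array. The cause of these differences between settings was not tested.

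The replicate numbers did not pair the arrays: deviations of same-numbered arrays from their group means correlated at -0.499 over the features. With the replicate number as a block 0 genes of the list and 0 features passed an adjusted p of 0.05, and the crossed pairing, chosen after seeing the data, also gave 0 and 0. No gene of the list was measured in 1 group and dim in the other, so that the planned bound for dim signals gave no value. With 2 arrays per group, overlapping groups or a p over the threshold do not show that the levels were equal.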

Other observations

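Some interferon genes were above background on all 4 arrays while *IFNB1* was not. *IFNA1* had S/N between 6.85 and 15.7 and *IFNK* between 4.34 and 14.7, with overlapping groups in both. *IFNL1* had S/N under 3 on every array. The *IFNL2* probe (*IL28A* on the array) had S/N between 13.5 and 52.7 on the 4 arrays, with scaled signals of 0.698 and 0.424 in mock and 0.436 and 0.665 in *SOX2* knockdown, so that the groups overlapped. Of the *IFNL3* probes (*IL28B*) 1 had S/N between 41.4 and 53.5, and the other was over 3 on 1 array. *IFNL2* and *IFNL3* are close paralogs, whose transcripts cannot be told apart here.

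*ZBP1*, an interferon-stimulated sensor of Z-form nucleic acid, gave opposite readings on its 2 probes. One had S/N between 108 and 111 on all 4 arrays and the other under 3 on all of them, and the averaged feature, at 46.0 and 55.3 in mock and 53.8 and 47.7 in knockdown, rests on the bright probe.

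In *STAT2*, *IFI27* and the averaged *USP18* feature the first mock array and the second knockdown array were the higher array of their group. Other genes of the list had the same order, among them *GBP1*, *IFITM1*, *TRIM5* and *SAMHD1*. Over the 18378 features tested, deviations of arrays paired in this crossed way correlated at 0.499. A shared deviation of these arrays was thus not particular to the genes named. *STAT2* was at 0.605 and 0.482 in mock and at 0.434 and 0.515 in knockdown, and *IFI27* at 1.02 and 0.772 in mock and at 0.795 and 0.931 in knockdown.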
